A study of Mus musculus with 3 samples.

Results

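Vcan, Crispld2, Olfml2b, Thbs1, Fn1, Srgn and Cldn1 were followed as a group of 7 genes for secreted matrix proteins and their partners, out of 10864 genes measured above a filter on dim signals. The group was built around genes that had already been seen to be lowest in both transgenic lines, and it was given by name. Differences from wild type therefore describe the members and test nothing. All probe sets that the platform annotation pairs with 1 of these symbols were taken, 21 in all, and 15 of them passed the filter. The name of the group holds only in part: Cldn1 encodes a membrane protein of cell junctions, and Srgn encodes a proteoglycan that is mostly kept in granules.

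The cells came from bone marrow and were selected as positive for Sca-1 and negative for lineage markers, a selection meant to enrich haematopoietic stem and progenitor cells. There were 3 arrays. They held cells of C57BL/6J mice of transgenic Line 6, labelled Tg(Ly6a-KDM1A*v2, cells of transgenic Line 3 with the same construct name, and cells of C57BL/6J wild type mice, all 10 weeks old. KDM1A is the human symbol of LSD1, a histone demethylase, and Ly6a is the mouse gene for Sca-1, the surface marker used to isolate the cells. Beyond the construct's name, the labels do not say which sequences drive it or in which cells it is active, nor how many mice were behind a sample. With a single array for each genotype, no error and no p-value can be given for any difference, and precision is limited by there being so few arrays. The wild type array also stood apart from both lines in sex-linked genes. Xist, which is expressed in female cells, differed by 1.17 in Line 6 and 0.91 in Line 3 on the log2 scale used below, and the Y-linked Eif2s3y by -1.24 and -1.16. The labels used here do not give the sex of the mice, and the part of sex in the values of the members was not tested.

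Versican, the product of Vcan, is a large chondroitin sulphate proteoglycan that binds the polysaccharide hyaluronan and, in blood cells, is known as a product of monocytes and myeloid cells. Fibronectin (Fn1) and thrombospondin 1 (Thbs1) are adhesive glycoproteins that cells grip through integrins and other receptors. Serglycin (Srgn) holds proteases and other cargo in the granules of blood cells. Crispld2 encodes a secreted protein of the CAP superfamily, Olfml2b a secreted protein with an olfactomedin domain, and Cldn1 the tight junction protein claudin 1.

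Values are the deposited intensities. Every difference is of log2(intensity + 16), with wild type subtracted from a line, or Line 6 from Line 3. The added 16 understates the differences of dim probe sets. A gene was represented by the probe set with the highest mean log2 value over the 3 arrays. A gene passed the filter if its intensity reached the array median on 1 or more of the arrays, and it was called lower or higher at a difference of 2-fold or more. Vcan passed this filter only through the wild type array, and a gene kept in that way could not be called higher in either line.

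The group split into 3 kinds of behaviour. Vcan, Crispld2, Olfml2b and Cldn1 lay 4.86-fold or more below wild type in Line 6 and 5.04-fold or more below it in Line 3. Thbs1 and Fn1 were lower by smaller amounts, and each passed 2-fold in 1 line only on its brightest probe set. Srgn differed by 1.09-fold in Line 6 and 1.01-fold in Line 3. In each line 5 of the 7 members were at least 2-fold lower, on arrays where 2.41% of all genes in Line 6 and 4.46% in Line 3 were. None was 2-fold higher, where 2.57% of all genes in Line 6 and 3.57% in Line 3 were. All 7 lay below 0 in each line, as did 42.4% of all genes in Line 6 and 39.4% in Line 3. Both lines were past the limit in 4 members, where 2.07% of all genes were, but the members were chosen on this contrast and nothing is read from that share.

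Upstream sequence is shown for the 4 members past 2-fold in both lines and for Srgn, which was not, so that the genes that moved together can be compared with one that did not. RefSeq promoter windows of build GRCm38.p6 were matched for 5 of the 7 members, 6 windows in all because Srgn has 2. The windows not matched are those of Thbs1 and Fn1. Each line below gives the 250 bases before the annotated start of the gene, read 5′ to 3′ on the gene's strand. Capitals mark matches on either strand to any of 8 motifs. The motif for C/EBP was TTGCNNNAA, the one for PU.1 was GAGGAAG and the one for AP-1 was TGANTCA. For NF-kB it was GGG, then any 5 bases, then CC. The motif searched for GFI1 was AAATCNC, the one named after cyclic AMP was TGACGTCA, the TATA box was searched as TATAAA and the GC box, bound by Sp1, as GGGCGG. The Vcan piece lies on the minus strand at chr13:89742513-89742762, the Crispld2 piece on the plus strand at chr8:119992188-119992437 and the Olfml2b piece on the plus strand at chr1:170644282-170644531. That of Cldn1 lies on the minus strand at chr16:26371840-26372089 and the first of Srgn on the minus strand at chr10:62527446-62527695.
Vcan: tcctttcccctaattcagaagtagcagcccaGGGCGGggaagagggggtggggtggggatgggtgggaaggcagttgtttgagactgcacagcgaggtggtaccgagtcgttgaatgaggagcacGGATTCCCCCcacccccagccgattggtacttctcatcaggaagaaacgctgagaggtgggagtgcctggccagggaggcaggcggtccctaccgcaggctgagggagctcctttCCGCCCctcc
Crispld2: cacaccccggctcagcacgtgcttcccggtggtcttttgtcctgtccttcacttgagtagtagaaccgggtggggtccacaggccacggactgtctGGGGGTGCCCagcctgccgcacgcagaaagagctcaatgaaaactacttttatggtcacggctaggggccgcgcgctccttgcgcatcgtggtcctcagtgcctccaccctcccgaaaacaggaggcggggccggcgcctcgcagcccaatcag
Olfml2b: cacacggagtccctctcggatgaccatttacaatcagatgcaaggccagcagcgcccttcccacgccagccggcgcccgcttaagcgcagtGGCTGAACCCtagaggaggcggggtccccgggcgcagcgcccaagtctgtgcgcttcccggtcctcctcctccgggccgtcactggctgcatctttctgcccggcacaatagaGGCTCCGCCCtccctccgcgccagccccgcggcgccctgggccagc
Cldn1: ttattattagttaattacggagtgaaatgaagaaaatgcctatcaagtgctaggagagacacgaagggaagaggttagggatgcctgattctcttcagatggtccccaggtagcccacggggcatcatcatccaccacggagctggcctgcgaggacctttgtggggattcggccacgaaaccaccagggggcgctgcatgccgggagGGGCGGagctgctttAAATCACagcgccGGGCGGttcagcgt
Srgn: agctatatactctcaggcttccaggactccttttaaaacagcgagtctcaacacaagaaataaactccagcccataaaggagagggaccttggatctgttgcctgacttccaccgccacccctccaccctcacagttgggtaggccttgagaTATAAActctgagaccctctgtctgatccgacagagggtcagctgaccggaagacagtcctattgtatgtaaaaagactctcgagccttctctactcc

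No motif was common to all 4 of the strongly lower genes. In windows of 300 bases, which add the 50 bases after the start, the NF-kB pattern matched in Vcan, Crispld2 and Olfml2b and in the second window of Srgn, which makes 4 of 6 windows. It matched in 50.8% of the 32851 windows in the table. GGGCGG matched in Vcan, Olfml2b and Cldn1, and in 35.7% of all windows. In Olfml2b the GC box match lies inside the second NF-kB match. AAATCNC matched in Cldn1 (11.7% of all windows) and TATAAA in the first Srgn window (13.6%). The letters of the C/EBP, PU.1, AP-1 and cyclic AMP motifs were in none of the 6 windows, against 9.56%, 13.6%, 7.81% and 1.79% of all windows. A match describes the letters and is not evidence of binding.

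Vcan came first of all 10864 genes when they were ranked on how far below wild type they lay in both lines. Its brightest probe set read 106 in Line 6 and 75.4 in Line 3, against 1233 in wild type. These intensities were 8.61% and 6.11% of the wild type value, and the log2 differences were -3.35 and -3.77. The transgenic values lay below their own array medians of 116 and 99.0, while the wild type value lay far above its median of 96.2.

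The other Vcan probe sets above the filter ran the same way. The second read 54.5 in Line 6 and 23.8 in Line 3, against 791 in wild type. The third read 66.7 and 25.0, against 701 in wild type. The fourth read 13.2 and 8.76, against 570 in wild type, and gave the largest differences, -4.33 and -4.57. All 4 probe sets passed the filter only through the wild type array, so none of them could be called higher in a line. Their differences ran from -4.33 to -3.12 in Line 6 and from -4.57 to -3.77 in Line 3. Probe sets of a gene share RNA and array, so they are not replicates.

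Below the filter were 4 more Vcan probe sets. One read 2.21 in Line 6 and 1.52 in Line 3, against 50.7 in wild type, and another read 8.27 and 3.44, against 28.3 in wild type. The remaining pair stayed under 16 on every array, at 1.29 and 7.52 against 3.43 in wild type, and at 1.56 and 4.31 against 0.760 in wild type. In that pair Line 3 was the highest array, at intensities where no signal can be told from background because no detection calls came with the values.

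Crispld2 stood next to Vcan in the ranking, and its 3 probe sets all passed the filter and all passed 2-fold in both lines. The brightest read 562 in Line 6 and 295 in Line 3, against 4482 in wild type, which is 7.78-fold and 14.5-fold lower. A further probe set read 495 and 224, against 2661 in wild type. The last read 204 and 90.8, against 1125 in wild type. On each of them wild type was the highest array and Line 3 the lowest. The difference was -0.89 for Line 3 minus Line 6 on the brightest probe set and -1.09 and -1.04 on the others, so the 2-fold limit between the lines was passed on 2 of the 3.

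Olfml2b, with a single probe set, read 122 in Line 6 and 96.9 in Line 3, against 944 in wild type. The folds below wild type were 6.97 in Line 6 and 8.51 in Line 3, and the gene ranked at place 4, behind Orm1. The lines were close to each other and both far below wild type, with Line 3 minus Line 6 at -0.29.

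Cldn1 took place 13 of the 10864 genes. Its brightest probe set read 146 in Line 6 and 141 in Line 3, against 773 in wild type, with differences of -2.28 and -2.33. The second read 56.0 in Line 6 and 85.9 in Line 3, against 282 in wild type, with differences of -2.05 and -1.55. The lines gave nearly equal values on the first probe set, and on the second Line 3 was the higher of the pair. Cldn1 also had 2 dim probe sets that never passed 16: they read 6.86 in Line 6 and 10.1 in Line 3 against 7.19 in wild type, and 2.37 and 0.108 against 4.44 in wild type. With these included, the median over all 4 probe sets differed by -1.03 in Line 6 and by -0.69 in Line 3.

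**Figure D1:**
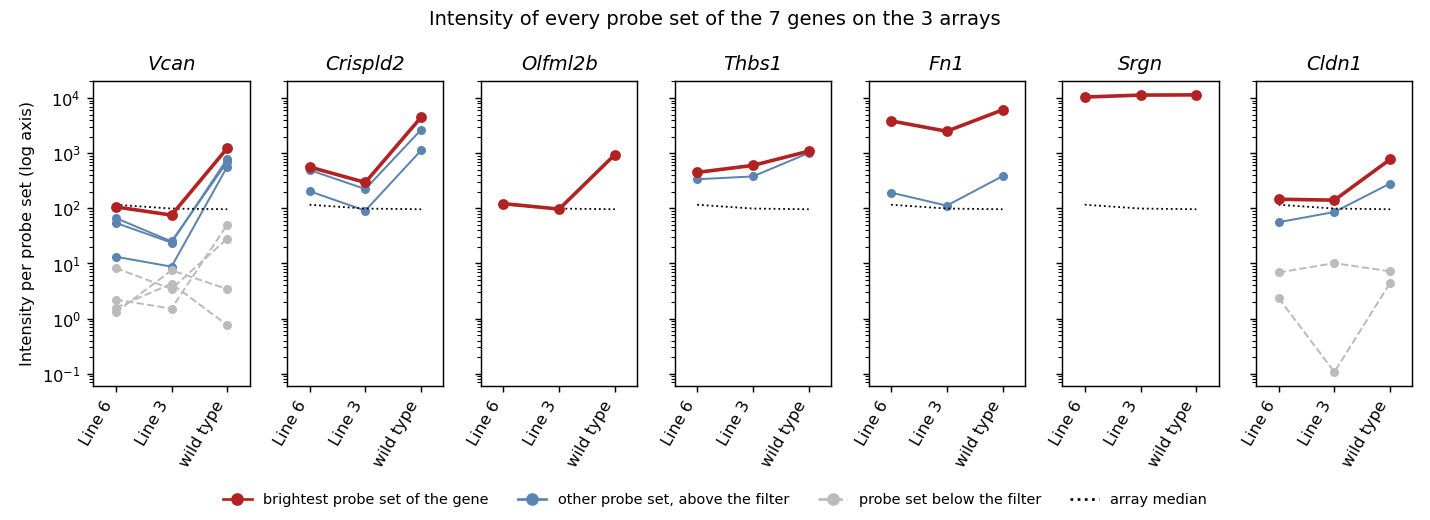
Intensity (log axis) of each of the 21 probe sets of the 7 genes on the Line 6, Line 3 and wild type arrays, with 1 panel per gene. Red marks the probe set that stands for the gene, blue the others above the filter, grey dashes those below it, and the dotted line each array's median. Wild type is the highest array for all 15 probe sets above the filter. The choice of the members and the filter favour this, and probe sets of a gene are not replicates. The lines stand at 1.54% to 9.51% of wild type for those of Vcan and at 91.4% and 99.2% for Srgn.

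The adhesive glycoproteins were lower by less. Thbs1 read 448 in Line 6 and 601 in Line 3, against 1087 in wild type, on its brightest probe set. Its other probe set read 336 and 379, against 1007 in wild type. Both were high in wild type and somewhat lower in Line 6 than in Line 3. The first gave -1.25 in Line 6 and -0.84 in Line 3, and the second -1.54 and -1.37, so only the second was past 2-fold in both lines. A probe set that the annotation pairs with both Pald1 and Thbs1 is outside the group. It read 973 in Line 6 and 1135 in Line 3, against 2332 in wild type.

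Fn1 ran in the opposite order between the lines, with Line 3 the lowest array. It read 3851 in Line 6 and 2498 in Line 3, against 6093 in wild type, which is 1.58-fold and 2.43-fold lower. Its second probe set read 193 and 112, against 383 in wild type, with differences of -0.93 and -1.64. Neither probe set passed 2-fold in Line 6 and both did in Line 3.

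Srgn read 10427 in Line 6 and 11314 in Line 3, against 11410 in wild type. The 3 arrays were nearly level, with differences of -0.13 and -0.01, and places 3099 and 4170 among the 10864 genes ordered from the most lowered in each line. Over the other scalings and settings the Line 3 difference ran from -0.05 to 0.03, so Srgn has no settled direction there. Srgn therefore does not share the pattern around which the group was built.

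**Figure D2:**
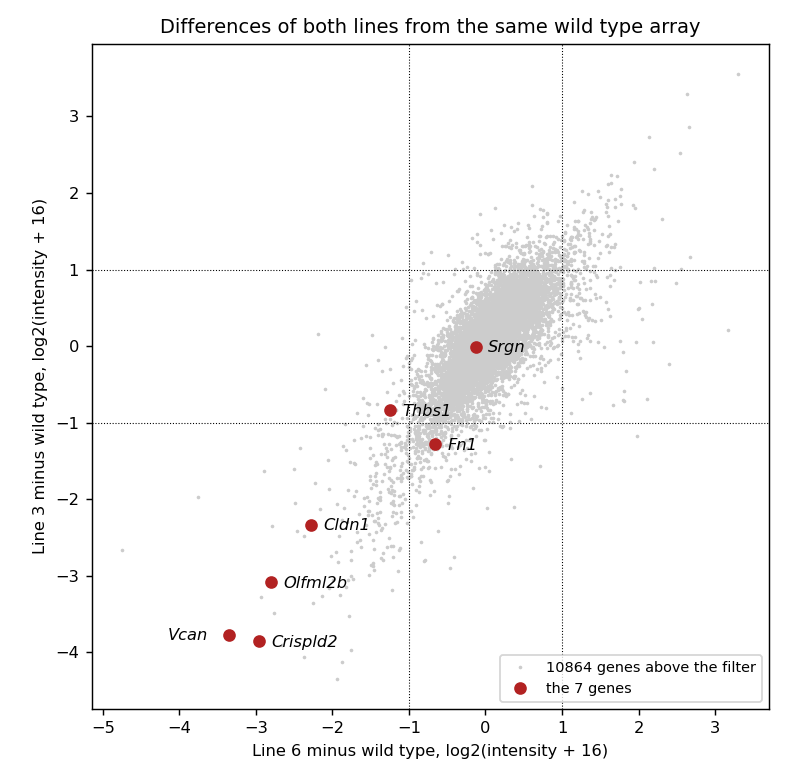
Line 6 minus wild type (x axis) against Line 3 minus wild type (y axis), both of log2(intensity + 16), for 10864 genes in grey and the 7 genes in red, with dotted lines at 2-fold. Both axes share the wild type array. Vcan (-3.35 and -3.77), Crispld2, Olfml2b and Cldn1 lie past 2-fold on both axes, Thbs1 and Fn1 on 1 axis each, and Srgn near 0.

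Between the lines 0 of 7 members passed the limit on the probe set that stands for the gene, where 1.58% of all genes were at least 2-fold lower in Line 3 than in Line 6 and 0.709% at least 2-fold higher. Line 3 was below Line 6 for 5 members, on arrays where 43.5% of all genes were. The differences ran from -0.89 for Crispld2 over -0.62 for Fn1, -0.42 for Vcan, -0.29 for Olfml2b and -0.05 for Cldn1 to 0.12 for Srgn and 0.41 for Thbs1. The SD of Line 3 minus Line 6 over all genes was 0.38, which takes in real differences of the lines together with noise. Crispld2, Fn1, Vcan and Thbs1 lay beyond 1 such SD, and the other 3 members did not.

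Among non-members, the genes nearest in pattern were found by the distance between pairs of differences (Line 6 minus wild type and Line 3 minus wild type), over 3 arrays. The members were chosen on these same differences. Genes nearest to the most lowered members are therefore strongly lowered themselves, and nearness tests nothing. Orm1, an acute phase gene, Il1r2, the interleukin 1 decoy receptor gene, and Il1b, the interleukin 1 beta gene, were the nearest to both Vcan and Crispld2. The distances to Vcan were 0.64, 0.65 and 0.70, and the nearest to Crispld2 was Il1b at 0.30. Il1r2 is also on the list of neutrophil markers. Il1b read 898 in Line 6 and 370 in Line 3, against 5778 in wild type. Orm1 (0.24), Inhba, an activin subunit gene (0.30), and Il1r2 (0.40) were nearest to Olfml2b. Among the members themselves, Vcan and Crispld2 were the closest pair at 0.40, and Vcan and Srgn the farthest apart at 4.95.

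For Cldn1 the nearest genes with a name were Tcl1b3 (0.20), Chit1 (0.35), the chitotriosidase gene, and Msr1 (0.40), a macrophage scavenger receptor gene. Gene models without a name were passed over, 1 of them nearer than Tcl1b3 and 2 nearer than Chit1 and Msr1. None was passed over for the other members. Thbs1 had Pdgfrl, Sry and Il4ra as neighbours, at distances up to 0.11. Sry, a Y-linked gene like Eif2s3y, read 69.5 in Line 6 and 91.8 in Line 3, against 176 in wild type. The neighbours of Fn1 (Panct2, Cep19 and Cmtm6) and of Srgn (Ppt1, Hk2 and Rnf121) lay within 0.01, in a region of small differences where many genes crowd. In that region nearness singles out little.

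The rest of the matrix pathway was described through 12 lists of matrix genes and their partners, which held 382 genes besides the members. On the array were 354 of them, of which 149 passed the filter, 22 only through the lines and 6 only through wild type. Of the 149, 10 (6.71%) were at least 2-fold lower on both comparisons, where 2.07% of all genes were. A further 5 (3.36%) were at least 2-fold higher, where 1.35% of all genes were. Among these higher genes, Col4a1, Stab2 and Esam were kept only through the lines, so they had to be higher in at least 1 line. Among the lower genes, Hapln3 and Tnf were kept only through wild type. The medians of the 149 were 0.08 in Line 6 and 0.13 in Line 3, beside 0.06 and 0.12 over all genes. Most of the matrix and partner genes thus did not share the behaviour of Vcan.

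Matrix proteases and their partners gave 6 of the 10 lower genes. This list had 14 measured genes, of which 6 passed 2-fold on the lower side in both lines, 0 on the higher side, and 8 did not pass in both. Its median was -0.45 in Line 6 and -0.90 in Line 3. They were the neutrophil collagenase Mmp8 (-1.28 and -2.63), the gelatinase Mmp9 (-1.21 and -2.61), the leukocyte protease Adam8 (-1.36 and -2.37), the urokinase gene Plau (-1.10 and -1.68), its receptor Plaur (-1.24 and -1.83) and Reck, a membrane-bound inhibitor of matrix metalloproteinases (-1.46 and -2.87). Reck read 227 in Line 6 and 75.4 in Line 3, against 654 in wild type. Mmp8 and Mmp9 are also on the list of neutrophil markers. The versican-cleaving proteases Adamts1, Adamts4, Adamts5, Adamts9 and Adamts15 were all below the filter, with Adamts5 at 91.1 in Line 6 and 66.0 in Line 3 against 78.9 in wild type.

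Genes for partners of versican in the hyaluronan coat were mostly dim. Of 12 measured non-members of the hyaluronan list, 1 was lower in both lines and 1 was higher. The lower one was the link protein gene Hapln3, at 28.9 in Line 6 and 62.9 in Line 3 against 144 in wild type, and it passed the filter only through wild type. The higher one was the scavenger receptor gene Stab2 (1.61 and 1.23), which was dim in wild type at 84.2. The hyaluronan synthase genes Has1, Has2 and Has3 were below the filter. Cd44, the main hyaluronan receptor of leukocytes, read 3564 in Line 6 and 3054 in Line 3, against 4988 in wild type, which is inside 2-fold.

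None of the 31 measured genes for chondroitin and heparan chains, the sugar chains that versican and serglycin carry, passed 2-fold in both lines. Chst3, a chondroitin sulphotransferase gene, was 1.57 higher in Line 6 and 0.58 in Line 3, and Csgalnact1, which starts chondroitin chains, was 0.91 and 1.23 higher. In wild type both lay below the array median, so the filter kept them because of the lines. The list medians were 0.08 in Line 6 and 0.13 in Line 3, near those of all genes.

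Of the 20 measured receptors for versican, fibronectin and thrombospondin, only 1 passed the limit in both lines. This was Tlr2, which was lower and encodes a Toll-like receptor through which versican can signal, at 345 in Line 6 and 341 in Line 3 against 850 in wild type. The fibronectin receptor subunit Itga5 (0.21 and 0.12), its partner Itgb1 (0.44 and 0.48) and the thrombospondin receptor gene Cd47 (-0.03 and -0.03) stayed inside 2-fold. Cell surface proteoglycans went the other way where they passed the limit: of 12 measured, Sdc3 (1.16 and 1.53) and Tgfbr3 (1.01 and 1.14) were higher in both lines and none was lower. These calls depend on the scaling. Centring on array medians takes 0.24 off each Line 6 difference, which puts both genes inside 2-fold in Line 6.

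Other secreted matrix genes did not follow Vcan. Of 17 measured matrix glycoprotein genes besides the members, none passed 2-fold in both lines in either direction, and the medians were 0.41 in Line 6 and 0.41 in Line 3. The filter has a part in these medians, since 3 of the 17 were kept only through the lines. Of all 70 such genes on the array, dim ones included, 37 lay below wild type in Line 6 and 26 in Line 3. Tgfbi, a fibronectin-binding matrix protein gene, gave -0.69 and -1.13, and Fgl2 gave -1.16 and -0.72. Of 9 measured collagen genes, Col4a1, a basement membrane collagen gene dim in wild type (39.8), was higher in both lines (1.42 and 1.66) and none was lower. Of the 40 collagen genes on the array, 31 were below the filter. Of 7 secreted proteoglycan genes besides the members, Hapln3 alone was lower in both lines. The other thrombospondin genes on the list, Thbs2, Thbs3 and Thbs4, were below the filter.

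**Figure D3:**
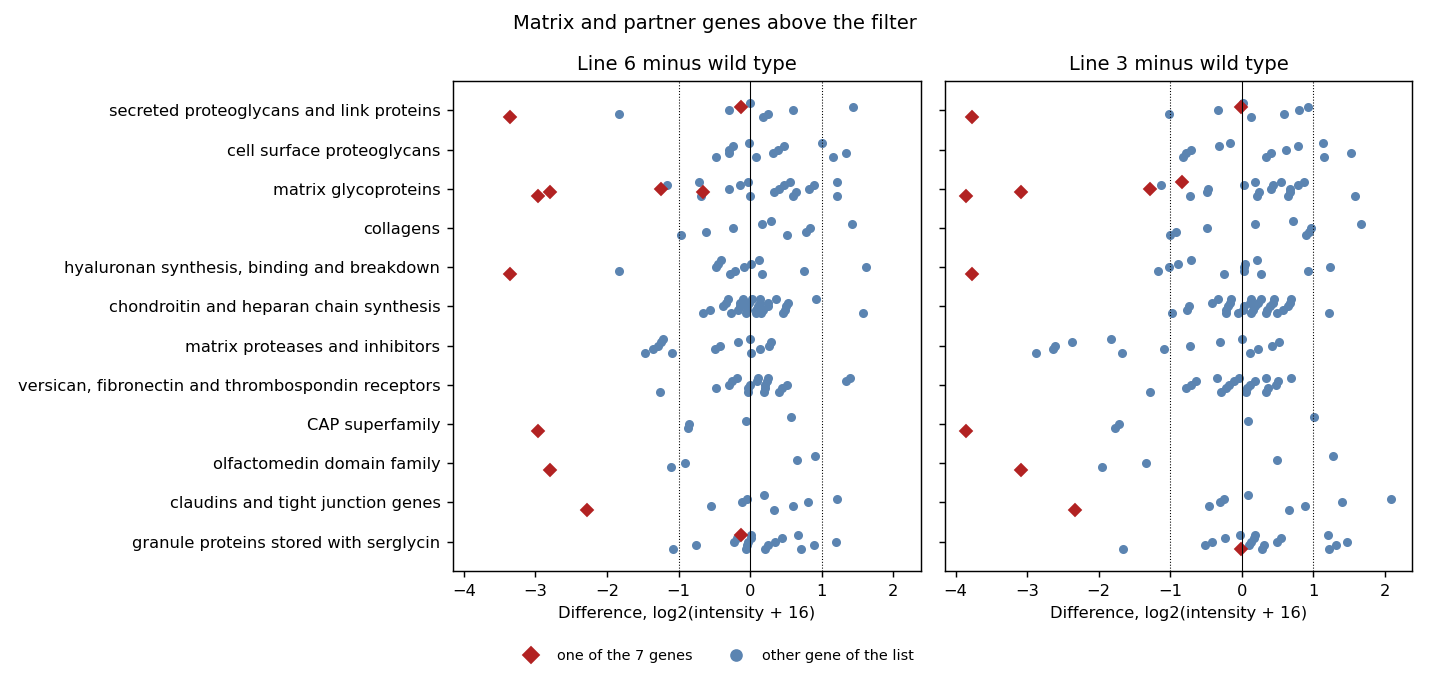
Differences from wild type of log2(intensity + 16) for each gene above the filter in the 12 lists, Line 6 on the left and Line 3 on the right, with dotted lines at 2-fold. Red diamonds are the 7 genes and blue points the others, and a gene on several lists appears in each. The proteases reach -1.46 in Line 6 and -2.87 in Line 3, while sugar chain synthesis genes gather near 0.

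The structural relatives of the members were few above the filter. In the CAP superfamily, Glipr2 (-0.86 and -1.77) and Pi16 (-0.86 and -1.72) were past 2-fold in Line 3 and inside it in Line 6, and Crispld1 was 0.57 and 1.01 higher, dim in wild type at 47.0. In the olfactomedin family, Olfm4, a neutrophil granule protein gene, was lower in both lines (-1.11 and -1.96). Olfm1 gave -0.91 and -1.33, and the adhesion receptor Adgrl2 was 0.90 and 1.27 higher. Among 8 measured claudin and tight junction genes besides Cldn1, none was lower in both lines, and Esam, an endothelial adhesion molecule gene, was higher (1.21 and 1.40) and dim in wild type at 29.7. Cldn7 was 0.60 and 2.09 higher, with 22.9 in wild type.

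Most granule cargo genes of serglycin stayed inside 2-fold, as Srgn did. Of 17 measured cargo genes, Tnf, kept through the wild type array alone, was lower in both (-1.07 and -1.65), and 0 were higher in both. The neutrophil protease genes Elane (-0.05 and 0.19), Prtn3 (-0.03 and 0.18) and Ctsg (0.01 and 0.31) and the peroxidase gene Mpo (0.02 and 0.10) stayed inside 2-fold. In Line 3, 4 of the 17 cargo genes were at least 2-fold higher, where 3.57% of all genes were. They were the mast cell and basophil protease genes Cpa3 (1.47) and Mcpt8 (1.32) and the granzyme genes Gzma and Gzmb (1.22), the last dim in wild type at 91.2. Gzma read 1217 in Line 6 and 1721 in Line 3, against 741 in wild type. In Line 6 alone, 1 cargo gene was past 2-fold on the higher side, the platelet chemokine gene Pf4, at 1609 in Line 6 and 1024 in Line 3 against 693 in wild type.

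Marker lists of several cell types differed on the same arrays, and their part in the values of the members was not tested. The selection against lineage markers is meant to remove mature blood cells, among them neutrophils and monocytes. In bulk RNA, fewer cells of a type and less RNA per cell cannot be told apart. Of 18 measured neutrophil markers, all lay below wild type in both lines, 9 of them past 2-fold. Their summed intensity was 123312 in Line 6 and 91621 in Line 3, against 195291 in wild type. By the mean of both differences they ran from S100a9 (-0.04 and -0.25) to Asprv1 (-2.37 and -4.06). S100a8, also on this list, held the highest value of the wild type array, 25535, and read 22487 in Line 6 and 18745 in Line 3. Of 14 classical monocyte markers without Vcan and Fn1, 11 lay below wild type in each line and 1, Cd14, was 2-fold lower in both, with sums of 49530 and 49020 against 62564 in wild type. In Line 3 alone Clec4a2 (-0.92 and -1.53) and Mgst1 (-0.76 and -1.15) were also past 2-fold, and the other 11 monocyte markers stayed inside it in both lines. The median of the 14 was -0.45 in Line 6 and -0.41 in Line 3. Of 14 measured tissue macrophage markers, 11 were past 2-fold on the higher side in both lines, with sums of 12858 and 16011 against 5049 in wild type. Mertk, Cd5l, Spic and Siglec1, 4 of these 11, passed the filter only through the lines and so had to be higher in at least 1 line. Of the other 10 markers, 7 were past the limit.

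Stromal cell and platelet markers were mostly dim or inside 2-fold. Of 18 stromal markers on the array, 2 lay below wild type in Line 6 and 4 did in Line 3. The 11 below the filter, among them Dcn, Lum and Pdgfra, included all of those, such as Ebf3 (-1.19 and -0.60) and Col6a1 (-0.46 and -0.63). The 7 above it had sums of 1815 and 1870 against 1163 in wild type, and 2 of them, Bgn and Adipoq, passed only through the lines. Pdgfrb (1.16 and 1.23) alone among the 7 was past 2-fold on the higher side in both lines, and none was past it on the lower side. Of 10 platelet markers besides Thbs1, 1 lay below wild type in Line 6 and 4 did in Line 3, and the sums were 5537 and 4627 against 3974 in wild type. Of these 10, 2 passed only through the lines. Among those 2 was Rab27b (1.58 and 1.86), the only platelet marker past 2-fold on the higher side in both lines. All 14 measured stem and progenitor markers lay above wild type in both lines, 2 of them kept by the filter only through the lines. Of all genes, 42.4% lay below wild type in Line 6 and 39.4% in Line 3. Kit read 899 in Line 6 and 923 in Line 3, against 603 in wild type. The other marker lists had medians in Line 6 and Line 3 of 1.06 and 1.03 (endothelial, 6 of 10 genes kept only through the lines), 0.34 and 1.32 (mast cell and basophil), 1.76 and 0.05 (B cell), 0.44 and 0.56 (T and NK cell), 0.12 and 0.16 (erythroid) and 0.61 and 1.80 (epithelial, 3 genes).

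The values of the members moved little with the scaling of the arrays. Quantile normalization, centring on array medians and cyclic loess each left 4 members past 2-fold in both lines, as did the other filters, probe set rules and pseudocounts. Over all these settings the Vcan difference ran from -3.59 to -2.89 in Line 6 and from -4.01 to -3.04 in Line 3. The genes were Vcan, Crispld2, Olfml2b and Cldn1 in every setting but 1. The exception concerned Cldn1, whose Line 3 difference of -0.69 with the median of its probe sets lay inside 2-fold, while the count of 4 held there because Thbs1 was past the limit in both lines.

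**Figure D4:**
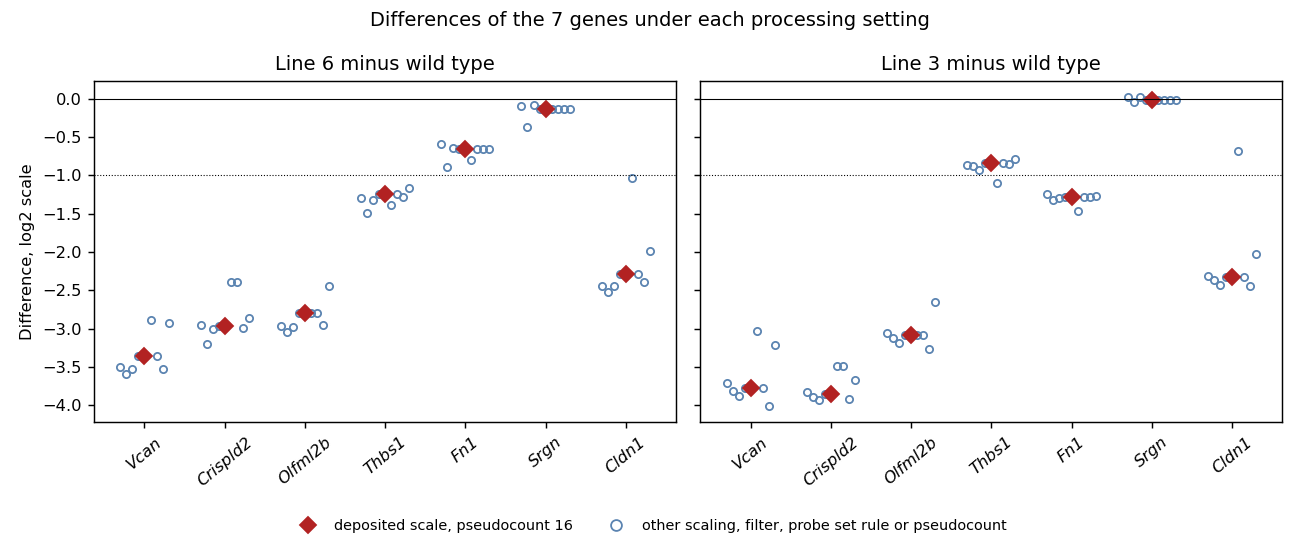
Difference from wild type on the log2 scale of each of the 7 genes (x axis) in Line 6 on the left and Line 3 on the right. Red diamonds give the deposited scale with 16 added, open blue circles each of the 9 other settings, and the dotted line 2-fold lower. Vcan, Crispld2 and Olfml2b stay below the dotted line in every setting shown, and Cldn1 leaves it in Line 3 in 1 setting.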

How the data were processed

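Per the labels' protocols, Trizol was used to extract RNA of 3 samples, 1 per genotype, Ovation Pico WTA to amplify it, and 3 ug were biotin-labelled for Affymetrix arrays. The deposited values are intensities on a linear scale, 1 per probe set and array. The sources used here do not state the summary method or the scaling. A mean that leaves out the lowest and highest 2% of values came to 497 on each array, so they share a scale. No detection calls came with the values, and 22.5% to 24.4% of probe sets per array lay below 16.

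Of 45037 probe sets, 34945 had 1 symbol in the platform annotation, 932 had several and 9160 were not listed. Symbols were updated through Entrez identifiers (34741 matched, 204 kept their own), which gave 18193 genes, of which 10864 passed the filter. Promoter windows are RefSeq's, of GRCm38.p6, and the sources name no build for the array. Protein sequences were not used here.

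The members and lists were chosen with earlier results of these data known. The named genes are the 7 members, the 3 nearest non-members of each that have a gene name (gene models and accession-like symbols were passed over), up to 4 genes per list with the largest mean difference, and list genes past 2-fold in both lines. Some list genes inside 2-fold were named outside this rule for their role, among them Cd44, Itga5, Itgb1, Cd47, Has1, the Adamts genes and some cell type markers, as were Xist and Eif2s3y. With 1 array per group no test was run, and samples were not pooled. The steps were tested on simulated data. Alternatives were 3 other scalings, 2 other filters, 2 other probe set rules, pseudocounts of 1 and 64, and limits of 1.5-fold and 3-fold. The tools were limma 3.58.1 in R 4.3.3, and numpy 2.4.6, pandas 2.3.3 and matplotlib 3.10.9 in Python 3.11.15.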

Additional observations from a re-analysis of the deposited data

How the results depend on the processing

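The count of members at least 2-fold lower in both lines was 4 under the 9 alternatives of scaling, filter, probe set rule and pseudocount, 6 at a limit of 1.5-fold and 4 at 3-fold. With the median of probe sets the 4 were Vcan, Crispld2, Olfml2b and Thbs1. No member past 2-fold changed sign under any alternative. Between Line 3 and Line 6, 1 member (Crispld2, -1.09) was past 2-fold with the median of probe sets, also when only plain _at ones entered (1 member), and 2 members were past 1.5-fold, against 0 on the main scale. Of the matrix and partner genes without the members, 10 were lower in both lines, against 16 at 1.5-fold and 0 at 3-fold, and 5 were higher in both lines. That count of higher genes was 3 after quantile normalization, 2 after centring, 2 after cyclic loess, 8 with no filter, 0 with the filter at percentile 75, 9 with a pseudocount of 1, 0 with a pseudocount of 64, 18 at 1.5-fold and 0 at 3-fold. The 6 lower proteases were 0 at 3-fold, and between 5 and 6 in every other setting. The cause of these movements was not tested, beyond the limits and filters that set them by construction.

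Centring on array medians moved the median of all genes in Line 6 to -0.17, from 0.06 on the deposited scale. The higher share among genes called in both lines was 39.5%, and quantile normalization made it 25.9%, cyclic loess 23.8% and centring 19.0%. Genes higher in both lines numbered 147, and 88, 85 and 76 under these 3 scalings, while 225 were lower, and 252, 272 and 324 under them. With no filter 344 genes were lower and 272 higher in both lines, with the filter at percentile 75 these were 147 and 30, at 1.5-fold 587 and 675, and at 3-fold 53 and 23. A pseudocount of 64 left 51 higher. No paired analysis was possible because each genotype had 1 array. Signal near background limits the dim probe sets, since no detection calls came with the values.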
